A study of Caenorhabditis elegans with 2 samples.

Results

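The insulin receptor signalling genes are 7 genes chosen by name, daf-2, age-1, pdk-1, akt-1, akt-2, sgk-1 and daf-18, out of 19973 nuclear protein-coding genes of Caenorhabditis elegans in the WBcel235 annotation. All 7 were found in the annotation, and the rule that names them uses no measured value. Chromatin bound by the GATA factor ELT-2 was mapped by ChIP-seq in whole hermaphrodites at the L3 larval stage, collected 40 h after synchronization as L1 larvae starved after bleaching. Biological replicates 1 and 2 form the only group, so no conditions were compared and no p-value is given. Both replicates were of strain OP56, which carries the mutation unc-119(ed3) on chromosome III and the integrated transgene wgIs56, from which ELT-2 is made with a C-terminal GFP-FLAG tag. An antibody against GFP was used, so the signal reports the tagged protein, and the cells in which a site was bound were not resolved in whole animals.

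DAF-2 is the insulin receptor of the worm. When insulin-like peptides occupy it, the phosphoinositide 3-kinase AGE-1 makes a membrane lipid through which the kinases PDK-1, AKT-1, AKT-2 and SGK-1 are activated. The phosphatase DAF-18 removes that lipid, and the AKT kinases hold the FOXO factor DAF-16 out of the nucleus. The pathway is known for its control of dauer formation and lifespan, and the intestine, the tissue specified and maintained by ELT-2 and related GATA factors, is a main site of DAF-16 action.

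Peaks were kept by IDR, which judges how well the order of strength repeats from replicate to replicate. The kept list holds the 9198 strongest peaks of the pooled list. A peak that passed thus lay above a cut in pooled signal, and passing does not show that it repeats on its own. Of the nuclear ones, 96.4% had a matching summit in both replicate lists. IDR-passing peaks lay in the windows of 6 of the 7 genes, a window being the gene body with 3 kb upstream of its annotated 5′ end. The windows held 13 IDR-passing summits. The kinase genes pdk-1 and sgk-1 held the strongest, the receptor gene daf-2 held the most, akt-1, akt-2 and daf-18 held weaker ones upstream of their first exons, and age-1 held none. Over all coding genes, 38.7% had an IDR-passing summit in such a window.

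The sequences around 7 of these summits are shown for a contrast among the genes. It is between summits with any of 4 chosen GATA hexamers close by, clustered or single, and a summit with none of them. These sequences include all 4 summits with TGATAA within 100 bp. Of the summits with no GATA hexamer there they include only that of pdk-1, so they do not stand for all 13. They come from the RefSeq sequence of WBcel235 (ce11), run 5′ to 3′ along the strand of the gene, and have 120 bases on each side of the summit, except for the upstream sgk-1 sequence, which stops at the ends of sgk-1 and of its neighbour. Capitals mark the GATA hexamers AGATAA or AGATAG or TGATAA or TGATAG, and GTAAACA, the DAF-16 binding element, on either strand; on the opposite strand they read TTATCT or CTATCT or TTATCA or CTATCA, and TGTTTAC. The core site of ELT-2 is TGATAA.
sgk-1 intron summit, chrX:16260140-16260380, minus strand: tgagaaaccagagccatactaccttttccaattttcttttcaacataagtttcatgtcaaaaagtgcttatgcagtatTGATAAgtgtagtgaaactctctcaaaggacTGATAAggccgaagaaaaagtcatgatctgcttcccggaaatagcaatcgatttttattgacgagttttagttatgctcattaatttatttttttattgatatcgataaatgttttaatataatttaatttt
sgk-1 upstream summit, chrX:16262123-16262288, minus strand: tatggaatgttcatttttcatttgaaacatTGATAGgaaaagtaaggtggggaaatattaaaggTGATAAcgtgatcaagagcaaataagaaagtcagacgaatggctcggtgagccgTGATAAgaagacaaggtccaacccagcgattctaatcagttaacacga
daf-2 intron 1 summit, chrIII:3034517-3034757, minus strand: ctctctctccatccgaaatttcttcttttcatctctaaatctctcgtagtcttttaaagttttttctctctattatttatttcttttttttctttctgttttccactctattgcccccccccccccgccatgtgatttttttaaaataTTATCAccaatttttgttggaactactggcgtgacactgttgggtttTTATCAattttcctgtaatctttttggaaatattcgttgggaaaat
akt-2 distal summit, chrX:14145716-14145956, plus strand: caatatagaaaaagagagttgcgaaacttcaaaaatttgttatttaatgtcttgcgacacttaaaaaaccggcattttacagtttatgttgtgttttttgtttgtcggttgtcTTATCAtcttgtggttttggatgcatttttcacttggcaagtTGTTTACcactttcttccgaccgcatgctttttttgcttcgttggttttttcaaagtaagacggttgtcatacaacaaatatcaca
akt-2 proximal summit, chrX:14146830-14147070, plus strand: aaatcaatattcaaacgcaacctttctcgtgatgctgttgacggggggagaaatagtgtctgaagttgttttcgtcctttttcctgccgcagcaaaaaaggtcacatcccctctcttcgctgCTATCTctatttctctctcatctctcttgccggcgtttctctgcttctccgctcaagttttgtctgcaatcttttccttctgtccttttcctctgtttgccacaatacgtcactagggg
akt-1 distal summit, chrV:10247055-10247295, plus strand: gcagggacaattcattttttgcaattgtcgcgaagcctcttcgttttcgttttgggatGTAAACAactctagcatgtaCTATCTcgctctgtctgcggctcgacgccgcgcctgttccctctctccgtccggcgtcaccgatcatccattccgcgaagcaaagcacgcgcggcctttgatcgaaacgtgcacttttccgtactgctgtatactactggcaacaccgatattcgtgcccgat
pdk-1 upstream summit, chrX:1319843-1320083, plus strand: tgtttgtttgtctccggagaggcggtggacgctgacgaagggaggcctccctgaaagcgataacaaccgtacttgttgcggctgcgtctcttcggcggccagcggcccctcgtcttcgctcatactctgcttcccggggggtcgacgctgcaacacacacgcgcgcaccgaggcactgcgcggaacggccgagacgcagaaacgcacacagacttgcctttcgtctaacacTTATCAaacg
Both sgk-1 sequences carry 2 copies of TGATAA in the orientation of the gene, close to the summit. In the daf-2 sequence both copies are on the opposite strand and lie downstream of the summit. In the weaker of the akt-2 sequences the core site and a DAF-16 element flank the summit, and the akt-1 sequence holds a DAF-16 element with the GATA form AGATAG. The pdk-1 sequence has its 1 capital run near its end, beyond 100 bp from the summit, and is rich in G and C. It also holds cgataa in lower case, which is not among the 4 hexamers searched.

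Signals are the deposited peak caller's values against a control library, and ranks count from 1 at the strongest peak of a list. The IDR-passing list holds 9198 peaks, which are the strongest of the 30000 in the pooled list, with signals from 74.97 to 9719. The list of replicate 1 holds 28033 peaks with signals up to 4678, and that of replicate 2 holds 30000 with signals up to 5013. Signals are therefore read within a list and not between lists. The lists give no read counts, so the depth behind each signal is unknown.

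The receptor gene daf-2 (WBGene00000898, chromosome III, 2994514 to 3040846, minus strand) has a body of 46333 bp, and only 11 coding genes have a window at least as long, daf-2 included. Its window held 4 IDR-passing summits, and all 4 lay in 1 stretch, the first intron (11981 bp) of its longest transcript. The same stretch is upstream of the 5′ ends of the other 6 annotated transcripts. No IDR-passing summit lay in the remaining body or in the 3 kb upstream.

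The strongest daf-2 summit, at position 3034637, lay 6209 bp downstream of the gene's 5′ end and 5837 bp upstream of the next transcript start. Its signal was 314.9 in the pooled list (rank 2961), 117.9 in replicate 1 (rank 3353) and 193.0 in replicate 2 (rank 2780). It was the only IDR-passing daf-2 summit with TGATAA within 100 bp, with 2 copies centred 30.5 and 77.5 bp away, as in the sequence above. At position 3036221 the signals were 163.7 pooled, 56.1 in replicate 1 and 108.0 in replicate 2. At position 3037487, which is 3359 bp from the 5′ end, they were 158.0 pooled, 70.3 in replicate 1 and 90.9 in replicate 2. These 2 summits exchanged places between the replicates (ranks 6447 and 5408 in replicate 1, 5038 and 5812 in replicate 2), had no GATA hexamer within 100 bp, and lay in or within 100 bp of linc-143, a long non-coding RNA gene inside the intron. The weakest, at position 3029948, had signals of 99.5 pooled, 45.1 in replicate 1 and 54.4 in replicate 2. It lay nearest to the cluster of shorter transcripts, 1148 bp upstream of the start at 3028800, in DNA with 25.9% G and C, with AGATAA centred 72.5 bp away and a TGATAA whose centre, at 99.5 bp, put part of it outside the 100 bp limit.

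The count of daf-2 summits depends on where the gene is taken to begin. When the window was measured from the most upstream coding base, at 3028702, a choice made after seeing the data, 1 of the 4 summits remained, the one 1246 bp upstream of that base. The other 3 lay 5935, 7519 and 8785 bp upstream of it. Annotated 5′ ends in C. elegans need not be sites of transcription initiation, since many transcripts are trans-spliced. Another 23 summits of daf-2 were in the pooled list only, the strongest with a signal of 57.7 at 6007 bp from the 5′ end, beside the strongest IDR-passing one. The next, with a signal of 51.3 (rank 11452), lay 70 bp upstream of the transcript start at 3028800. TGATAA was centred 19.5 bp from that summit, which was matched in both replicate lists.

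The age-1 gene (WBGene00000090, chromosome II, 11519328 to 11527054, minus strand) encodes the catalytic subunit of the phosphoinositide 3-kinase. It was the only member without an IDR-passing summit. Its window held 2 pooled summits, both in introns of the longer of its 2 transcripts. The stronger, 3447 bp downstream of the 5′ end, had a signal of 23.2 in the pooled list (rank 20980), 13.6 in replicate 1 and 10.5 in replicate 2. The other, at 595 bp, had a signal of 15.6 pooled (rank 28277) and 8.15 in replicate 2, with no matching summit in replicate 1. Both signals were far below the weakest IDR-passing signal of 74.97, and the best rank of age-1 in either replicate was 19947, so it was not near the threshold in any list. Its window of 10.727 kb held 8 copies of TGATAA, 0.746 per kb against a median of 1.04 per kb over coding genes, and none lay within 100 bp of an IDR-passing summit.

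Immediately upstream, mdt-8, a Mediator subunit gene on the same strand, ends 113 bp from the 5′ end of age-1. Apart from that gap, the 3 kb upstream of age-1 lie inside mdt-8. In a look made after the age-1 result was known, mdt-8 had 1 IDR-passing summit, 1195 bp upstream of its own 5′ end (signal 164.3, rank 5481), and the nearest coding start to it was that of Y62F5A.12, at 532 bp. Whether age-1 is transcribed together with mdt-8 was not tested.

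The gene pdk-1 (WBGene00003965, chromosome X, 1321344 to 1327986, plus strand) encodes the kinase that phosphorylates and activates the AKT kinases. It held the strongest summit of all 7 genes, 1381 bp upstream of its 5′ end at position 1319963. The signal there was 523.8 in the pooled list (rank 1493), 204.7 in replicate 1 (rank 1734) and 323.1 in replicate 2 (rank 1298). Among coding genes with an IDR-passing summit, 78.9% had a weaker strongest summit. Neither TGATAA nor any other of the 4 GATA hexamers lay within 100 bp of it, the nearest TGATAA being centred 113.5 bp away. G and C made up 64.7% of the 201 bp around it, and only 4 of the 9181 nuclear IDR-passing summits, this one included, were at least as high (0.0436%), against a median of 37.8%. The replicate summits lay 34 and 11 bp from the pooled summit.

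The second pdk-1 summit lay in intron 2 (2051 bp), 1879 bp from the 5′ end. Its signal was 142.3 pooled (rank 6109), 54.2 in replicate 1 (rank 6629) and 89.1 in replicate 2 (rank 5897). It had TGATAG centred 49.5 bp away and 40.8% G and C. These were the only 2 summits of the pooled list in the pdk-1 window, which also held 2 in replicate 2 and 4 in replicate 1. The akt-1 window held 10 pooled summits and the sgk-1 window 11.

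The AKT genes encode the kinases that phosphorylate DAF-16. All 4 IDR-passing summits of akt-1 and akt-2 lay upstream of every annotated transcript. For akt-1 (WBGene00000102, chromosome V, 10248905 to 10252845, plus strand) they lay 1730 and 498 bp from the 5′ end. The distal one had signals of 107.4 pooled, 35.1 in replicate 1 and 72.4 in replicate 2, and the proximal one 103.0 pooled, 51.1 in replicate 1 and 57.1 in replicate 2. Their order was opposite in the replicates: the proximal summit was the stronger in replicate 1 (rank 6905 against 8974) and the distal summit in replicate 2 (rank 6841 against 7986). The distal summit, in DNA with 54.2% G and C beside the non-coding RNA gene C12D8.25, had AGATAG centred 39.5 bp and GTAAACA 59 bp away. No GATA hexamer lay within 100 bp of the proximal summit. Just under the threshold, akt-1 had a pooled summit of signal 66.0 (rank 9902) in the 3′ UTR of 2 of its transcripts, 3845 bp from the 5′ end.

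For akt-2 (WBGene00000103, chromosome X, 14147700 to 14152070, plus strand) the stronger summit lay 750 bp upstream of the 5′ end. Its signal was 216.2 pooled (rank 4338), 93.2 in replicate 1 (rank 4240) and 120.8 in replicate 2 (rank 4556). AGATAG was centred 4.5 bp from it, with no TGATAA within 100 bp. The weaker summit lay 1864 bp upstream, with signals of 76.6 pooled (rank 9087), 39.1 in replicate 1 (rank 8351) and 37.7 in replicate 2 (rank 10112). It was the weakest of the 13, and the only one outside sgk-1 and daf-2 with TGATAA, which was centred 4.5 bp away and followed by G. A DAF-16 element was centred 38 bp away on the other side. Both akt-2 summits thus had a GATA hexamer centred 4.5 bp away, and only the weaker one had the core form and a DAF-16 element within 100 bp.

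The kinase gene sgk-1 (WBGene00004789, chromosome X, 16254842 to 16262122, minus strand), a relative of the AKT genes, was the only member whose IDR-passing summits all lay near TGATAA. One summit was 55 bp upstream of the 5′ end, in the gap of 166 bp between sgk-1 and mua-6, an intermediate filament gene on the same strand. Its signal was 443.4 pooled (rank 1916), 140.1 in replicate 1 (rank 2797) and 296.1 in replicate 2 (rank 1516). TGATAA was centred 9.5 and 44.5 bp away, and TGATAG 78.5 bp away. The other lay 1862 bp into the gene, in intron 1 (1901 bp) of 2 transcripts and 132 bp upstream of the 5′ end of the third. Its signal was 513.7 pooled (rank 1536), 217.7 in replicate 1 (rank 1562) and 298.0 in replicate 2 (rank 1499), with TGATAA centred 8.5 and 39.5 bp away. Thus each of the alternative starts of sgk-1 had a strong summit within 200 bp upstream of it. Both peaks were narrow, 233 and 245 bp wide, against the fixed 440 bp of 10 of the 13. The upstream pdk-1 peak, at 299 bp, was also narrower than those. The summits were almost equal in replicate 2 and differed more in replicate 1.

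Between these summits sgk-1 held weaker ones that did not pass IDR, at 1193 bp (signal 63.8, rank 10090, with 1 TGATAA) and 1663 bp (58.4, rank 10616). Of the 17 copies of TGATAA in its window, 4 were within 100 bp of an IDR-passing summit. In daf-2 2 of 50 were, in akt-2 1 of 12, and in age-1, pdk-1, akt-1 and daf-18 none.

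The gene daf-18 (WBGene00000913, chromosome IV, 420011 to 425177, minus strand) encodes the lipid phosphatase that opposes AGE-1. Its 1 IDR-passing summit lay 603 bp upstream of its 5′ end. The signal was 78.4 pooled (rank 8948), 28.1 in replicate 1 (rank 10464) and 45.5 in replicate 2 (rank 9112). In the replicate 1 list it stood below the 9198 strongest peaks, and only 1.72% of coding genes with an IDR-passing summit had a weaker strongest summit. It was also the only one of the 13 whose nearest coding start belonged to another gene: garr-1, which is transcribed the other way across a gap of 990 bp, starts 388 bp from it. No GATA hexamer lay whole within 100 bp, the closest being AGATAA centred 101.5 bp away. A pooled summit 2665 bp upstream had a signal of 61.3 (rank 10330) and did not pass.

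**Figure D1:**
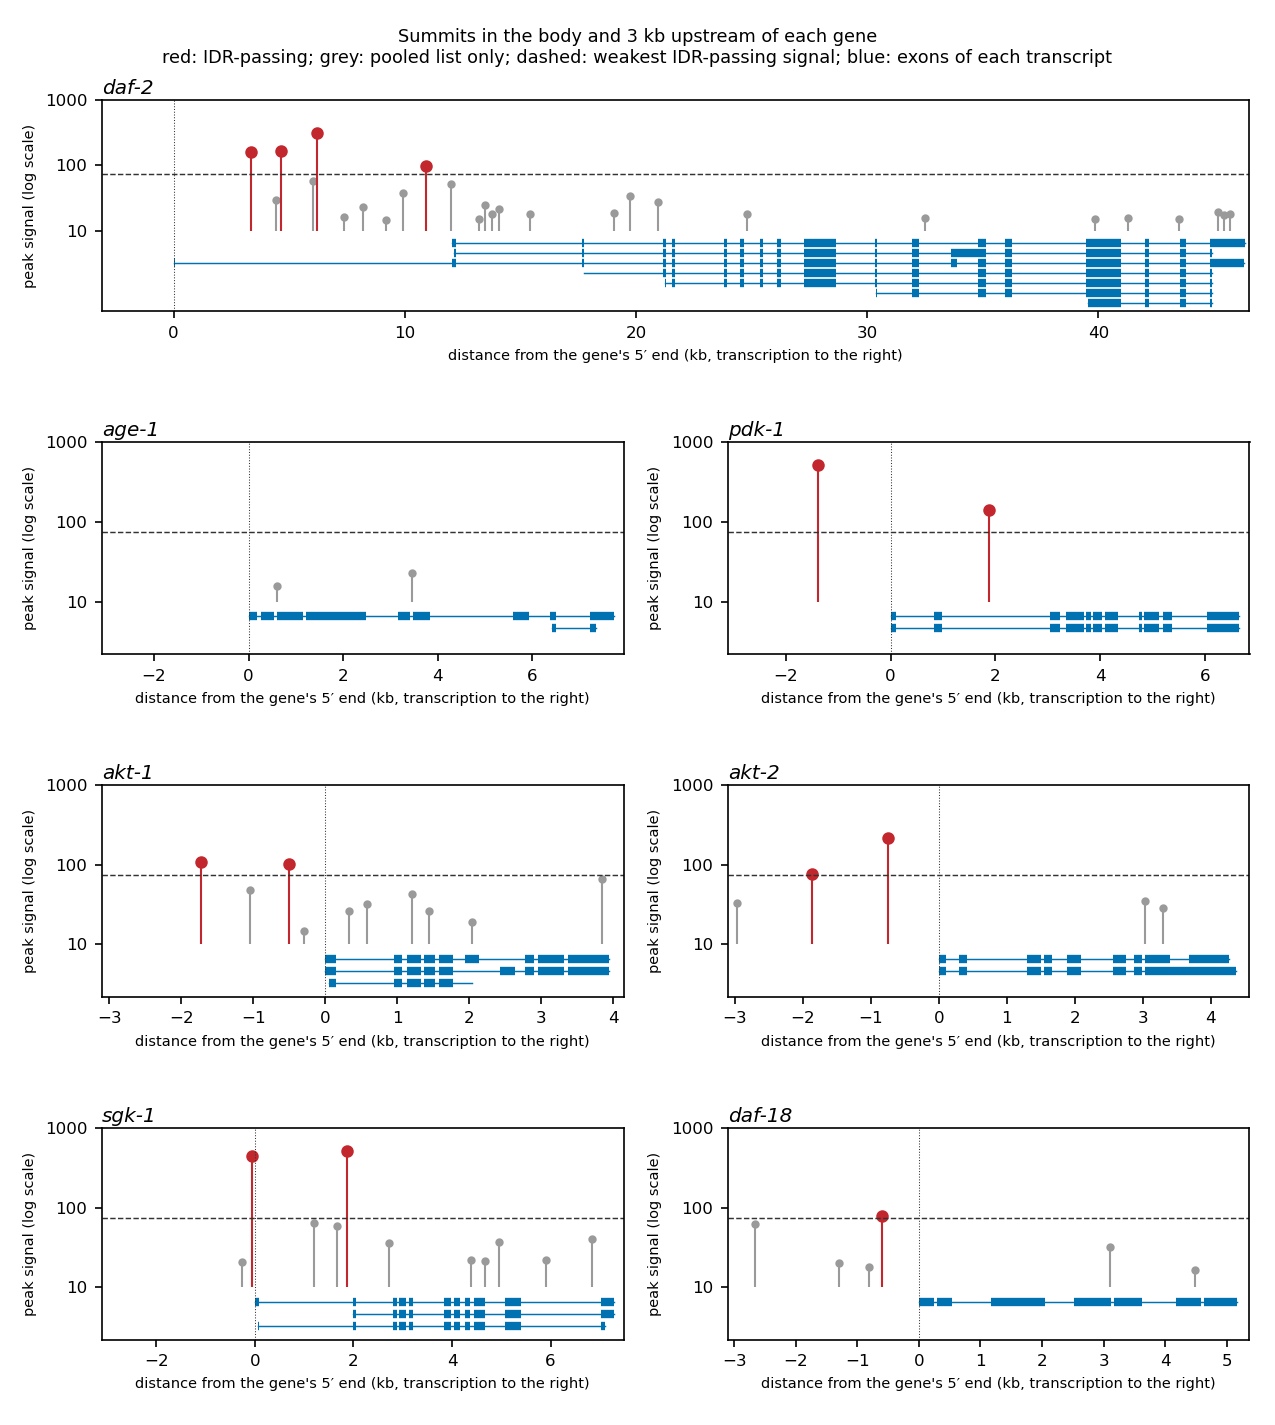
Signal of every pooled-list summit (vertical axis, log scale, no unit) against distance from the 5′ end of the gene in kb, with red for IDR-passing summits, grey for those of the pooled list only, a dashed line at the weakest IDR-passing signal and the exons of each transcript in blue. All 4 red daf-2 points stand over its first long intron, those of akt-1, akt-2 and daf-18 stand upstream of the first exon, and age-1 has only 2 grey points.

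In the plot of signal by position the summits fall into 2 classes. Upstream of every transcript lay 7 of the 13 summits, in pdk-1, akt-1, akt-2, sgk-1 and daf-18. The other 6 lay in an intron of some transcript, in daf-2, pdk-1 and sgk-1. Those in daf-2 and sgk-1 were also upstream of other transcripts of the same gene. None lay in an exon or a UTR. Within 1000 bp of a start of the same gene lay 5 of the 13. These places were not counted over all IDR-passing summits, so the counts only describe the members. With the gene body alone as window, 3 genes and 6 summits were left (11.5% of all coding genes had one), and from 1000 bp upstream to 500 bp downstream of any transcript start 4 genes and 5 summits were (26.7%), a window chosen after seeing the data that leaves out daf-2 and pdk-1.

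All 13 summits were matched in both replicate lists within 100 bp, and the largest distance between a pooled and a replicate summit was 48 bp. Over the 9181 nuclear IDR-passing summits, 96.4% were matched in the same way. The replicate signals of the 13 ran from 28.1 to 217.7 in replicate 1 and from 37.7 to 323.1 in replicate 2. Only the weaker akt-2 summit had the lower of its values in replicate 2, and since the lists have scales of their own, ranks are the measure to compare. Taking the 9198 strongest peaks of 1 replicate in place of the IDR-passing list, daf-18 had no summit by replicate 1 and 1 by replicate 2, akt-2 had 2 and 1, akt-1 had 3 and 2, and daf-2, pdk-1 and sgk-1 had 4, 2 and 2 by either.

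**Figure D2:**
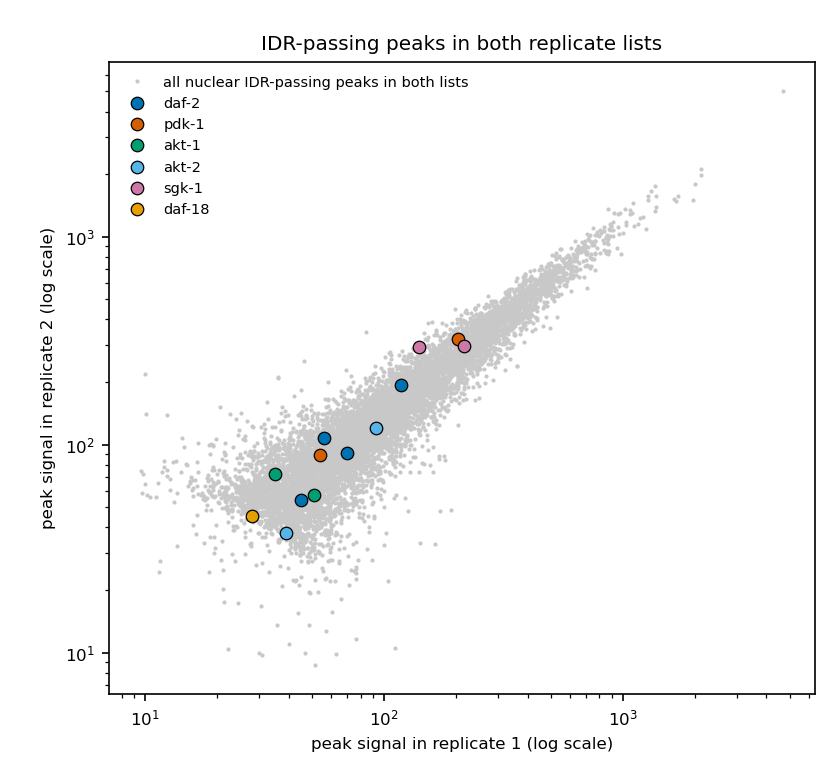
Signal of each nuclear IDR-passing peak in replicate 1 (horizontal axis) and replicate 2 (vertical axis), both on log scales without unit, with the 13 summits of the insulin receptor signalling genes coloured by gene. The coloured points lie within the cloud of all peaks, with pdk-1 and sgk-1 highest and daf-18 and the weaker akt-2 summit lowest.

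In the plot of replicate signals the members spread along the lower and middle part of the cloud. Their median pooled signal was 158.0 (rank 5676), against 203.5 over all nuclear IDR-passing peaks. By strongest summit the order was pdk-1, sgk-1, daf-2, akt-2, akt-1, daf-18, and the median over all coding genes with an IDR-passing summit was 249.3. The first 2 in the order had ranks of 1493 and 1536 in the pooled list and changed places in replicate 1, where sgk-1 ranked 1562 and pdk-1 1734, so their order does not exceed the replicate spread. For daf-2, akt-2, akt-1 and daf-18 the order was the same in the pooled list and in both replicates.

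The count of 6 of 7 stands beside backgrounds that rise with window length. An IDR-passing summit was present in 31.5% of coding windows under 5 kb, 44.0% of those from 5 to 10 kb, 52.3% of those from 10 to 20 kb and 58.7% of those of 20 kb and over. The members' windows ran from 6.941 kb for akt-1 to 49.333 kb for daf-2, against a median of 5.027 kb over all coding genes. At least 2 IDR-passing summits were present in 5 members, daf-2, pdk-1, akt-1, akt-2 and sgk-1, and in 15.3% of all coding genes; by length class it was 18.02% from 5 to 10 kb, 27.8% from 10 to 20 kb and 37.7% at 20 kb and over. All 7 had a pooled summit, against 58.4%. Per length the members held 1.27 IDR-passing summits per 10 kb and all coding windows 1.02. By gene this density was 2.88 for akt-1, 2.71 for akt-2, 2.07 for pdk-1, 1.95 for sgk-1, 1.22 for daf-18, 0.811 for daf-2 and 0 for age-1. The receptor gene had the most summits and, apart from age-1, the lowest density.

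**Figure D3:**
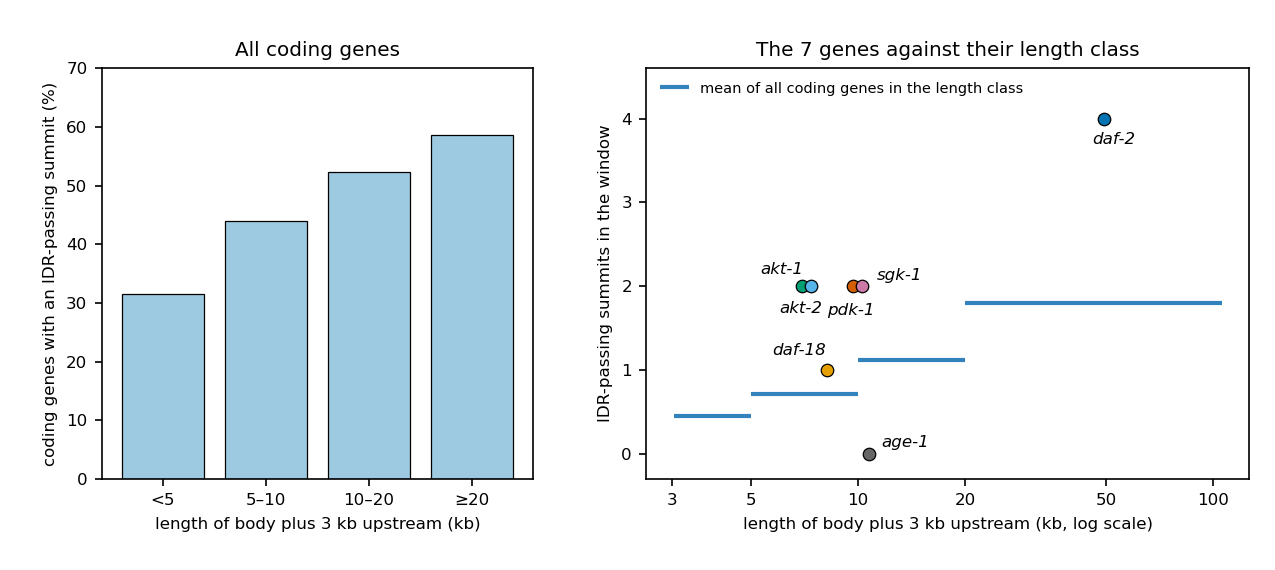
Left, the percentage of all coding genes with an IDR-passing summit in 4 classes of window length in kb; right, the number of IDR-passing summits of each of the 7 genes against its window length in kb (log scale), with the class mean over all coding genes as a bar. The means rise from 0.452 to 1.80 with length, age-1 lies below the mean of its class, and the other 6 genes lie above theirs.

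As the plot against window length shows, the 4 daf-2 summits belong to a class of 300 genes with a mean of 1.80, in which 17.0% had at least 4. That class takes in all windows of 20 kb and over, and the daf-2 window of 49.333 kb is among its longest. Per 10 kb the class held 0.634 IDR-passing summits and daf-2 0.811. The 2 summits of pdk-1, akt-1 and akt-2 and the 1 of daf-18 belong to a class with a mean of 0.712. For sgk-1 and age-1 the class mean was 1.12.

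TGATAA lay within 100 bp of 4 of the 13 summits, both of sgk-1 and 1 each of daf-2 and akt-2. Over all nuclear IDR-passing summits it did for 53.9%, and 17.9% of all 201 bp windows of the genome held it. Any of the 4 GATA hexamers, of which TGATAA is one, lay within 100 bp of 8 of the 13, against 69.6% of all IDR-passing summits and 35.7% of genome windows. The 5 without any were 2 of daf-2, the upstream one of pdk-1, the proximal one of akt-1 and that of daf-18. GTAAACA lay near 2, in akt-1 and akt-2, against 5.08% of all IDR-passing summits and 2.27% of genome windows. A match of letters was not tested for occupancy by any factor, and its absence says only that these letters are not in the window.

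**Figure D4:**
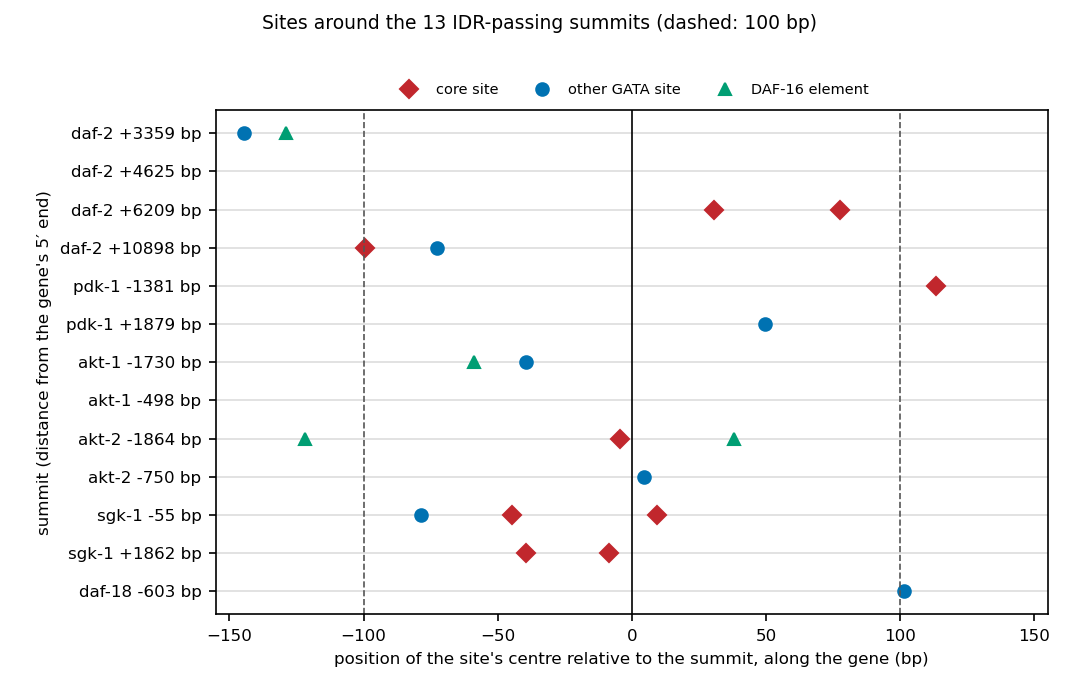
Position in bp, along the strand of the gene, of each site centre relative to the summit for the 13 IDR-passing summits, with TGATAA as the core site in red, the other 3 GATA hexamers in blue and the DAF-16 element in green; dashed lines mark 100 bp. The sites closest to a summit are those of the akt-2 and sgk-1 summits, and the daf-2 summit at 4625 bp and the proximal akt-1 summit have none in the range drawn.

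The plot of site positions shows that the core sites that lay whole within 100 bp of a summit, in sgk-1, akt-2 and daf-2, were centred 4.5 to 77.5 bp from it. TGATAA followed by G was found near 3 summits, both of sgk-1 and the weaker one of akt-2. The windows of the 7 genes held 112 copies of TGATAA in all, of which 7 (6.25%) lay within 100 bp of an IDR-passing summit. In all coding windows it was 7.65%. G and C content among the 13 ran from 25.9% to 64.7%. Over all nuclear IDR-passing summits, the median was 35.8% with TGATAA and 40.8% without, and 6.63% were over 50%, as were the distal akt-1 and the upstream pdk-1 summit here.

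Of the 63 pooled summits in the windows, 50 did not pass IDR. In the whole series 9198 of the 30000 pooled peaks passed. Both replicates held a matching summit for 17 of the 50, and 7 had TGATAA within 100 bp, beside 17.9% of genome windows of 201 bp. The shares over all pooled summits that did not pass were not computed, so these counts only describe the members. Another summit that was stronger lay within 210 bp of 6 of the 50. On either side of the threshold, the weakest that passed were in akt-2 (76.6) and daf-18 (78.4), and the strongest that did not were in akt-1 (66.0), sgk-1 (63.8) and daf-18 (61.3).

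Among the genes around the pathway, the insulin-like peptides, which are the ligands of DAF-2, had an IDR-passing summit in 7 of 39 cases (17.9%, against 38.7% of all coding genes and 31.5% of those with windows under 5 kb; the median peptide window was 3.655 kb). The strongest were at ins-12, with a signal of 771.0 at 894 bp upstream, and at ins-7, with 723.8 at 124 bp inside the gene, a summit also within 3 kb upstream of ins-8. The adaptor list (median window 10.473 kb) had one in all 3 genes, against 52.3% of coding genes with windows of 10 to 20 kb. They were ist-1, related to insulin receptor substrates, with 283.6, aap-1, the regulatory subunit that partners AGE-1, with 132.1, and shc-1 with 109.4. The partner subunit gene aap-1 had 2 IDR-passing summits where the catalytic subunit gene age-1 had none. Both lay upstream of aap-1 and neither within 1 kb of it. The stronger was 2813 bp away, and the nearest start to it was that of chp-1. All 6 phosphatase and 14-3-3 genes, with a median window of 5.21 kb, had one, against 44.0% of coding genes with windows of 5 to 10 kb. The strongest were at the 14-3-3 gene ftt-2 (696.9) and the phosphatase subunit gene pptr-1 (567.8). For 3 of the 6, let-92, par-5 and paa-1, the start nearest to the strongest summit belonged to another gene. Of the 6 membrane and Eak regulators, with a median window of 4.89 kb, eak-4 (770.5) and eak-7 (93.3) had one. That was 33.3%, against 31.5% of coding genes with windows under 5 kb. For both genes the start nearest to the summit belonged to another gene, F53B2.8 and hsb-1.

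The list called transcriptional outputs holds DAF-16, other transcription factors and regulators of DAF-16. All 8 of its genes had an IDR-passing summit, in windows with a median of 11.695 kb. Of all coding genes with windows of 10 to 20 kb, 52.3% had one. The start nearest to the strongest summit was the gene's own for 5 of the 8, and another gene's for smk-1, hcf-1 and skn-1. The strongest were at pqm-1 (7 summits, up to 1320, rank 174) and at daf-16 itself (10 summits in a window of 29.206 kb, up to 763.4, rank 714). In the TOR branch, with a median window of 10.162 kb, 8 of 9 had one, led by rheb-1 (1376, nearest start spk-1) and aak-2 (419.0), with aak-1 as the exception. The nearest start was the gene's own for 4 of the 8, and another gene's for ragc-1, rict-1 and let-363 besides rheb-1. The medians of the strongest signals were 638.2 for the outputs, 448.8 for the peptides, 431.9 for the Eak group, 332.4 for the phosphatase group, 221.3 for the TOR branch and 132.1 for the adaptors, beside 249.3 over all genes with a summit. These medians were not matched for window length, and the median window over all coding genes was 5.027 kb. The Eak median rests on 2 genes, and the peptide median counts the summit shared by ins-7 and ins-8 for each of them. No list was tested against another.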

How the data were processed

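ELT-2 ChIP-seq peaks were measured in 1 group of whole L3 hermaphrodites with biological replicates 1 and 2. The authors deposited ce11 lists of peaks with background for each replicate and for the pooled replicates, and a list that passed IDR; a control library entered the calling, per the deposited text lists. For aligner, peak caller, versions and IDR threshold, the sources used here give nothing. The signal that the authors deposited per peak has a scale of its own in each list and served only for ranking and description within that list. The deposited −log10 q was not used to rank, and the deposited summit offset gave each summit. Read depth is unknown, so no interval is given. The ce10 lists were not used here, and coordinates are 1-based.

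Genes came from Ensembl release 115 and sequence from RefSeq, both on WBcel235, the assembly called ce11. Windows were the gene body plus 3 kb upstream. Sites were searched on both strands and counted where they lay whole within 100 bp of a summit. Replicate summits were matched within 100 bp, the nearest transcript start was taken over coding genes, and genome shares came from non-overlapping 201 bp windows. With 1 group of 2 replicates no test was made. The 7 genes, the lists around them and the alternatives were chosen with earlier results of these data known. Named were all 7 genes, the 2 genes with the strongest summit of each list, all adaptors, and other genes nearest to a member's summit; ins-8, aak-1, mdt-8, Y62F5A.12, chp-1, F53B2.8, hsb-1, spk-1 and the list genes named only for a nearest start of another gene were named after their values were seen. Other windows, site distances, peak lists and each replicate alone were tried. The work used Python 3.11.15, numpy 2.4.6, pandas 2.3.3 and matplotlib 3.10.9. The counting of summits in gene windows and the search for TGATAA were tested on simulated data, and the other steps were not.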

Additional observations from a re-analysis of the deposited data

How the results depend on the processing

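The count of 6 genes with an IDR-passing summit and that of 13 summits depended most on the window and on the list. The body alone gave 3 genes and 6 summits, because summits upstream were left out, and keeping only the IDR-passing peaks above their median rank gave 4 genes and 5 summits. The whole pooled list gave 7 genes and 63 summits, and the window from 1000 bp upstream to 500 bp downstream of any transcript start, added after seeing the data, gave 4 and 5. With 1 or 5 kb upstream, the nearest start only, no summit at another coding gene, any peak overlap, or (added after seeing the data) the most upstream coding base, 5 or 6 genes and 10 to 16 summits were found. Leaving out 1 replicate gave 5 to 6 genes, 12 to 13 summits and 4 to 5 summits with TGATAA, the last added after seeing the data. TGATAA was near 4 summits, any of the 4 GATA hexamers near 8, and TGATAA near 11 in the pooled list; limits of 50 and 150 bp gave 4 and 6. All 13 summits were matched in both replicates at every distance tried. Of the summit counts of single genes under the alternatives, 54 stayed within 1.5 times and 30 did not. No paired analysis was possible because there is 1 group and no test. The unknown depth limits what can be said of age-1 and of the weak pooled summits.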
